A study of Homo sapiens with 6 samples.

Results

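The transcriptome described here is that of control SW480 liver metastases, represented by 3 of the 6 libraries of the series. SW480 is an established human cell line from a colon adenocarcinoma. Its cells carried a control guide RNA (sgCtrl) and were injected into the portal blood of mice of the NSG strain, which lacks mature lymphocytes and tolerates human grafts. The metastatic cells were freed from the liver with collagenase IV, red cells were lysed, and a density gradient and a mouse cell depletion kit preceded the extraction of RNA. The 3 sgCtrl libraries were chosen by their labels alone, and all 58884 gene identifiers were ranked in them. The 3 libraries of the knockout group (sgITPR3) were not used, so every value below is a level in control tumours and none is a difference between conditions. Whether the replicates are 3 animals is not stated in the labels, so the spread between libraries may be technical in part. The sources used here do not give mouse age, sex or the time in the liver.

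Polyadenylated RNA was sequenced with the Lexogen 3′ FWD kit, which reads tags near transcript ends. In such libraries a transcript gives tags from its end only, so a long transcript does not give more tags than a short one, and CPM, the counts of a gene per 1000000 counts of its library, were compared between genes without division by length. Each gene has a rank by its mean CPM over the 3 libraries, with rank 1 the most abundant, and values are given as mean ± SD (n = 3) or for replicates 1, 2 and 3 in that order. The rank reflects RNA abundance, which is set by synthesis and decay together, and it carries no information on protein. The recovered cells were a bulk sample, so fewer cells of a type and less RNA per cell cannot be told apart.

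The libraries held 19361145, 20049117 and 19255242 counts, and a single count was worth 0.0486 to 0.0525 CPM. In all, 26749 genes had a count, 13741 had a mean of 1 CPM or more, and 13076 reached 1 CPM in every library. Of 19945 protein-coding genes, 59.6% had a mean of 1 CPM or more and 8.21% a mean of 100 CPM or more, and their median was 5.0 CPM. These shares and this median are the background for the counts and medians of the lists below. A gene without a count in any of the 3 libraries is limited to 0.0511 CPM, which is the worth of 3 counts over the group and covers counting error only. Among the 8890 genes with a mean of 10 CPM or more, the median coefficient of variation was 7.33%, against 3.65% from counting alone. The gene targeted in the other group, ITPR3, was at 105, 91.7 and 92.6 CPM in these control libraries, rank 1742.

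The steepest part of the ranking belonged to a few genes. Only 396 genes together supplied 50% of the counts, and the top 20 held 23.5% to 24.3% of each library. Mitochondrially encoded genes took 11 of the top 20 places and 20.1% to 21.3% of the counts. The large mitochondrial ribosomal RNA, MT-RNR2, came first at 86818 ± 2708 CPM, and the small one, MT-RNR1, came second at 26276 ± 5137 CPM. MT-RNR1 was at 26966, 20828 and 31032 CPM, a wider spread (coefficient of variation 19.5%) than that of MT-RNR2 (3.12%). The other 9 encoded subunits of the respiratory chain or of ATP synthase, led by MT-ND4 at 14497 ± 1437 CPM, MT-CO3 at 14285 ± 1117 CPM, MT-ATP6 at 11081 ± 1313 CPM and MT-ND3 at 9285 ± 233 CPM. MT-ND2, MT-CYB, MT-CO2, MT-ATP8 and MT-ND5 followed between 9257 and 3839 CPM. Several of these genes overlap or have nuclear copies, so their tags may have been shared out or lost in counting.

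The nuclear genes of the top 20 were 9 in number. MALAT1, a long noncoding RNA that stays in the nucleus, led them at 13110.0, 14196 and 13485 CPM. HSP90AA1, the inducible cytosolic HSP90 chaperone, was next at 5089, 4105 and 4806 CPM, ahead of TPT1, a translationally controlled growth protein, at 3646 ± 172 CPM. ACTN4, an actin crosslinker of motile cells, stood at 3299.9 ± 222 CPM. The others were the ribosomal protein genes RPS27A, RPL37A and RPS29 at 2741 to 3085 CPM, the glycolytic gene GAPDH at 3063 ± 314 CPM, and the metallothionein MT2A. Of the 87 ribosomal protein genes, 37 were among the top 100, and the class held 7.62% to 8.23% of the counts. Ribosomal protein genes, GAPDH and HSP90AA1 have many processed copies in the genome, and the sources used here do not give how reads with several alignments were treated, so their levels are uncertain.

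**Figure D1:**
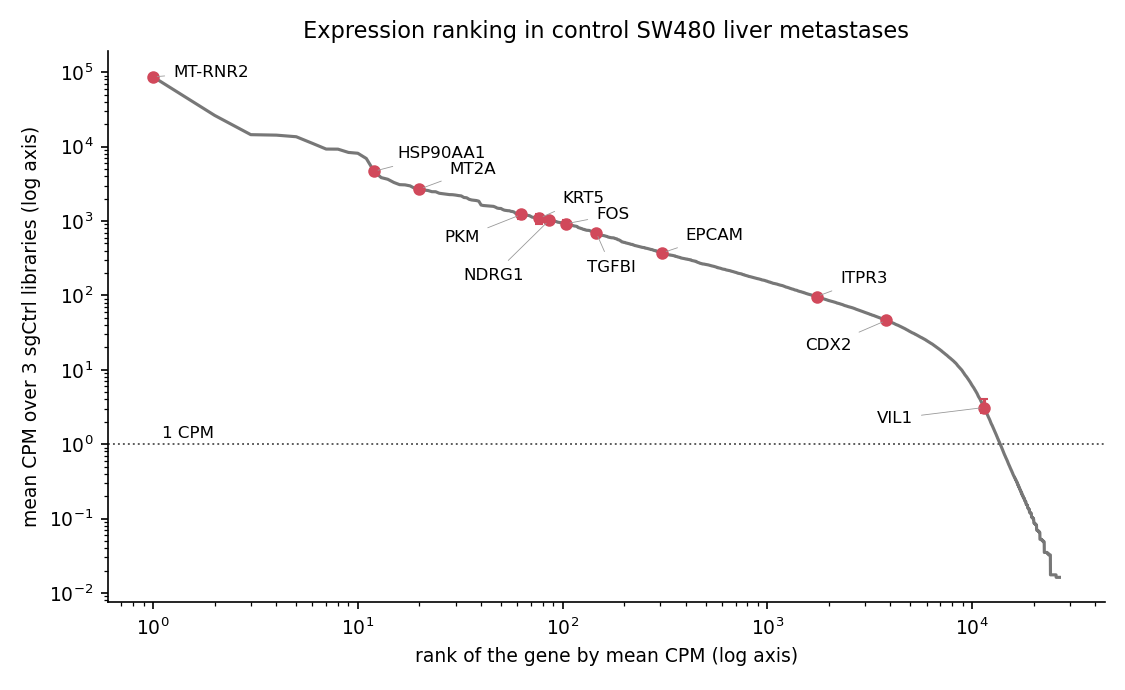
Mean CPM of each of the 26749 genes with a count over the 3 sgCtrl libraries (y axis, log scale) against the rank of the gene (x axis, log scale); red points mark named genes with bars from the lowest to the highest library. The 6 marker genes MT2A, PKM, KRT5, NDRG1, FOS and TGFBI lie between rank 20 and rank 146, while the colon gene VIL1 lies at rank 11458.

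The 6 genes given as markers of these tumours all stood within the first 150 ranks, and they belong to unlike functions. They were chosen with earlier results of these data known, so their high ranks are a description only. MT2A (ENSG00000125148, chromosome 16, 56608199 to 56609497, GRCh38) encodes a small metal-binding protein and was at 2914, 2468 and 2667 CPM, rank 20. PKM (ENSG00000067225, chromosome 15, 72199029 to 72231822), the pyruvate kinase of the last glycolytic step, was at 1250.3, 1081 and 1349 CPM, rank 63. KRT5 (ENSG00000186081, chromosome 12, 52514575 to 52520687), a keratin of basal cells in stratified epithelia, was at 1126, 917 and 1230.2 CPM, rank 77. The MT2A range lay above that of PKM. The ranges of PKM and KRT5 overlapped, but PKM was above KRT5 in every library.

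NDRG1 (ENSG00000104419, chromosome 8, 133237171 to 133302022), a gene known for its induction in low oxygen, was at 947, 1098 and 1019 CPM, rank 86. FOS (ENSG00000170345, chromosome 14, 75278774 to 75282230), a subunit of the AP-1 transcription factor that is made within minutes of stimulation, was at 1044, 839.7 and 873 CPM, rank 104. TGFBI (ENSG00000120708, chromosome 5, 136028895 to 136063818), a secreted matrix protein induced by TGF-beta, was at 683, 709 and 701 CPM, rank 146. The ranges of KRT5, NDRG1 and FOS overlapped their neighbours in this order, whereas all 3 TGFBI values lay below all 3 FOS values.

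TGFBI was also the most even of the 6 markers, with a coefficient of variation of 1.87% against 14.6% for KRT5. With CPM divided by transcript length the 6 genes stood at ranks 27 (MT2A), 64 (NDRG1), 83 (KRT5), 111 (FOS), 134 (PKM) and 190 (TGFBI).

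Metallothioneins are small cysteine-rich proteins that hold zinc and copper, and their genes lie in a cluster on chromosome 16. Their transcription is known to respond to zinc through the factor MTF1, which binds metal response elements with the core TGCNCNC. The 250 bases before the RefSeq start (GRCh38.p14) were searched for this core on both strands in the 5 of 12 metallothionein genes that the promoter table held. MT2A had 7 matches, MT1H 8, MT1X 4, and MT4 and MT1B 5 each, where overlapping matches count separately. Of 35116 promoters, 49.1% had at least 1 match and 1.77% had 4 or more. A match is a description of the letters and not a site in use. The 3 stretches below are shown because these genes span the family's range, from an abundant gene through a moderate one to one without a count, with matches in capitals. In GENCODE 29 all 250 bases of the MT2A window and the last 46 bases of the MT1X window lie in an annotated first exon. For MT2A a stretch of 30 bases with 2 of the matches is therefore given (chr16:56608408-56608437, plus strand), for MT1X the 204 bases before the exon with all 4 (chr16:56682220-56682423, plus strand), and for MT1H the whole window with all 8 (chr16:56669564-56669813, plus strand).
MT2A: cgcggcccGTGTGCAgagccgggTGCGCCC
MT1X: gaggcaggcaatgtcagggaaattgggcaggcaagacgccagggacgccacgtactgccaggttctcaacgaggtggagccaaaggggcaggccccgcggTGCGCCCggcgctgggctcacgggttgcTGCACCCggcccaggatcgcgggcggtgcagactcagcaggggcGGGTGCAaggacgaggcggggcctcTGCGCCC
MT1H: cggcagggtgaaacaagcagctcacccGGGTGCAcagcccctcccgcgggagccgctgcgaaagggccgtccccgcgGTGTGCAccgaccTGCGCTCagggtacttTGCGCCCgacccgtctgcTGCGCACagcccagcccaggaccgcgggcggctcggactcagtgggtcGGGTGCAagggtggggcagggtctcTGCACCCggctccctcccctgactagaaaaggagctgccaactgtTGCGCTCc

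MT2A and MT1H, with 7 and 8 matches, stood at opposite ends of the family's levels. MT1E was at 771, 770.0 and 901 CPM, rank 120, and MT2A was 2.96 to 3.78 times as abundant as MT1E in the 3 libraries. MT1A stood at 107 ± 10.3 CPM, MT1X at 82.0 ± 5.19 CPM and MT1F at 22.8 ± 3.49 CPM. The ranges of neighbours in this order did not overlap. MT3, known from brain, was at 8.80 ± 1.5 CPM. The other 6 members were under 1 CPM: MT1B was at 0.369 ± 0.192 CPM, MT1G, MT1M and MT4 had 3 counts or fewer over the group, and MT1H and MT1HL1 had none. MT1 genes are close copies of each other, so reads may have been lost or assigned among them.

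The SW480 line comes from colon, whose epithelium renews from Wnt-driven stem cells at the crypt base into absorptive and goblet cells. Epithelial identity genes were present: 27 of 32 had a mean of 1 CPM or more, against 59.6% of all protein-coding genes. The list median was 33.6 CPM, against 5.0 CPM for all protein-coding genes. DSP, which anchors keratins at desmosomes, was the most abundant at 718, 724 and 768 CPM. EPCAM, the epithelial cell adhesion molecule, was at 374, 410.4 and 336 CPM and CTNNB1, beta-catenin, at 366, 349 and 349 CPM. DSP lay above both in every library, and EPCAM and CTNNB1 overlapped. The tight junction gene CLDN4 was at 233 ± 36.6 CPM and the protease inhibitor SPINT2 at 308 ± 45.8 CPM.

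E-cadherin, CDH1, ranked much lower among the adhesion genes. It was at 21.9, 27.2 and 18.9 CPM, rank 6292, and EPCAM was 15.1 to 17.7 times as abundant. Of the listed epithelial genes, 5 were below 1 CPM. Among them were CLDN1 at 0.532 ± 0.423 CPM, and GRHL2, an epithelial transcription factor, without a count.

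Genes of the colon lineage divided by kind. Of the 39 listed, 12 had no count, and the list median was 0.0499 CPM (0.0259 CPM without replicate 2). A mean of 1 CPM or more was reached by 12, where 59.6% of all protein-coding genes reached it. Transcription factors accounted for 8 of the 12. SOX9, a factor of crypt progenitors, was at 304, 259.6 and 302 CPM, rank 443. PROX1 was at 78.8, 98.5 and 87.9 CPM, and CDX2, the intestinal identity factor, at 49.9, 41.8 and 46.8 CPM. SOX9 was 6.10 to 6.46 times as abundant as CDX2, and the ranges of SOX9, PROX1 and CDX2 were all apart. KLF4, a factor of differentiating cells, was at 23.4 ± 0.694 CPM, whereas CDX1 and ATOH1, the goblet and secretory factor, had no count.

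The products of mature enterocytes and goblet cells were near the floor. Their highest was VIL1, villin of the brush border, at 2.68, 4.03 and 2.62 CPM, and ALPI, MUC13 and FABP1 followed at 1.84, 1.74 and 1.39 CPM. The remaining 19 of 23 were under 1 CPM, with KRT20 and CDH17 at 1 count each over the group. CEACAM5 and CEACAM6 were listed at 0, but both overlap another annotated coding gene on the same strand, and a counter that drops such reads would list them at 0 as well. The same holds for the glycolytic gene ALDOA, listed at 0.287 ± 0.118 CPM beside an overlapping coding gene without counts. Of the 365 list genes under 1 CPM, 27 overlap a coding gene on the same strand, against 47 of the 538 list genes at 1 CPM or more. What this did to single levels was not tested.

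Stem cell genes stood well above the differentiation genes. Of 16, 12 had a mean of 1 CPM or more, against 59.6% of all protein-coding genes. The list median was 25.6 CPM. AXIN2, a feedback inhibitor and direct target of Wnt signalling, was at 394, 384 and 425 CPM, rank 283. CD44, the hyaluronan receptor, was at 240.2, 235 and 233 CPM. RNF43 and ZNRF3, ubiquitin ligases that remove Wnt receptors, were at 177 ± 5.99 and 109 ± 1.32 CPM, and ASCL2, a Wnt-responsive stem cell factor, was at 106 ± 6.03 CPM. The range of AXIN2 lay above that of CD44, and that of CD44 above that of RNF43, while ZNRF3 and ASCL2 overlapped. LGR5, the best known crypt stem cell marker, had 2 counts in 3 libraries, and OLFM4 had none. LGR5 also overlaps 3 annotated genes, none of which exceeded 0.131 CPM.

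**Figure D2:**
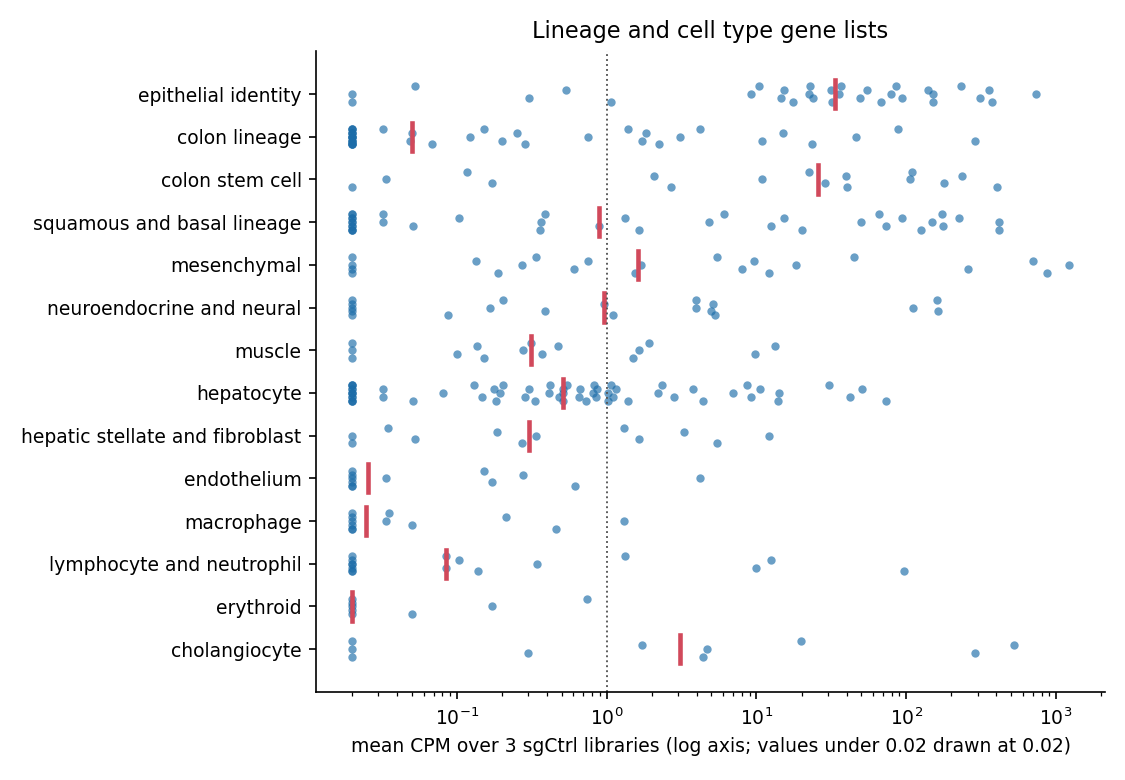
Mean CPM over the 3 sgCtrl libraries (x axis, log scale) of each gene in 14 lineage and cell type lists (blue points), with the list median as a red bar and a dotted line at 1 CPM; values under 0.02 CPM are drawn at 0.02. The epithelial and colon stem cell medians stood at 33.6 and 25.6 CPM, and the macrophage, endothelium and erythroid medians left of the dotted line.

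A few mesenchymal genes were abundant beside the epithelial ones, while the median of the mesenchymal list was low. VIM, the intermediate filament of mesenchymal cells, was at 1218, 1126 and 1313 CPM, rank 65, which was 41.4 to 69.3 times the level of CDH1. S100A4, a calcium-binding protein of motile cells, was at 880.2, 834 and 887 CPM, and SPARC, a matrix protein, at 269.9, 250.3 and 259 CPM. All neighbours in the order VIM, S100A4, TGFBI, SPARC had ranges apart. FN1, fibronectin, was at 18.4 ± 1.59 CPM. ZEB1, a repressor of CDH1, was the most abundant of the 7 transcription factors at 45.8, 45.1 and 43.6 CPM, with SNAI1 at 7.97 ± 1.35 CPM and TWIST1 at 1 count. N-cadherin, CDH2, was at 0.735, 1.31 and 0.210 CPM, below CDH1 in every library. A mean of 1 CPM or more was reached by 12 of 22 listed mesenchymal genes, near the 59.6% of all protein-coding genes. A mean of 100 CPM or more was reached by 4 of the 22, against 8.21% of all protein-coding genes. The list median was 1.62 CPM, against 5.0 CPM for all protein-coding genes. THY1 and FAP had no count.

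Squamous and basal genes were read because KRT5 is best known from such cells. Of 37, 18 had a mean of 1 CPM or more, against 59.6% of all protein-coding genes. The list median was 0.884 CPM, against 5.0 CPM for all protein-coding genes. ITGA6, the laminin-binding integrin chain of basal cells, was at 427, 383 and 433 CPM, and SFN, 14-3-3 sigma, at 412, 376 and 454 CPM. The ranges of the pair overlapped. PERP, a desmosome protein, was at 224 ± 12.3 CPM, S100A2 at 176 ± 23.6 CPM and KLK6, a secreted serine protease, at 173 ± 22.1 CPM. TP63, the factor that specifies stratified epithelium, had 1 count over the group, and KRT14, the usual partner of KRT5, had none. DSG3, IVL and SERPINB3, products of squamous cells, also had no count, and COL17A1 of the basal attachment was at 0.884 ± 0.0759 CPM.

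Neural and muscle lists held a few expressed genes each. REST, which represses neuronal genes, was at 163 ± 10.9 CPM. NCAM1, the neural cell adhesion molecule, was at 157, 148 and 179.8 CPM, and ENO2, neuronal enolase, at 110.3 ± 6.22 CPM. The neuroendocrine factor INSM1 had no count, and CHGB, a granule protein, was at 5.33 ± 0.643 CPM. Among 15 muscle genes the highest was TNNT1 at 12.5, 16.9 and 10.4 CPM, and the muscle factors MYOD1 and MYOG had no count. TTN, titin, was uneven at 7.56, 21.1 and 0.735 CPM, and it lies over TTN-AS1 and other antisense genes from which it cannot be told apart without the strand setting.

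Keratins form filaments from pairs of a type I and a type II protein, and the pairs change with the kind of epithelium. KRT8 and KRT18 are the pair of simple epithelia, KRT5 with KRT14 that of basal cells, and hair keratins build the shaft and its root sheath. Of 54 keratin genes, 17 had no count and 17 had a mean of 1 CPM or more, against 59.6% of all protein-coding genes. The summed level was 1952 ± 173 CPM for 28 type I genes, of which 7 reached 1 CPM, and 1732 ± 209 CPM for 26 type II genes, of which 10 did. The ranges of the sums overlapped, but the type I sum was higher in every library.

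Among type I keratins, those of simple epithelia led. KRT18 was at 1337, 1177 and 1168 CPM, rank 62. KRT19 was at 585, 452 and 534 CPM, and KRT23 at 136, 116 and 117 CPM. The 3 ranges were apart, with KRT18 at 2.19 to 2.6 times KRT19. KRT20, the keratin of mature colon epithelium, had 1 count. KRT10, known from cornified epithelium, was at 70.1 ± 10.9 CPM, and KRT17 at 2.97 ± 0.557 CPM. The 15 type I hair and root sheath genes were low, with KRT31 the highest at 1.04 ± 0.407 CPM.

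Among type II keratins, KRT5 was first and KRT8 second. KRT8 was at 361, 268 and 263 CPM, all below the 3 values of KRT5, and KRT5 was 3.12 to 4.69 times as abundant. The ratio of KRT5 to KRT18 was 0.842, 0.779 and 1.05, so the order of this pair was not the same in every library. The ratio of KRT18 to KRT8 was 3.70, 4.39 and 4.45. KRT7, the partner found in ductal epithelium, was at 1.72 ± 0.351 CPM, a level that is uncertain because KRT7 overlaps the coding gene KRT86 on the same strand.

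Several hair and root sheath keratins of type II were detected at moderate levels. KRT81 was at 123, 83.5 and 109 CPM, KRT75 at 83.3, 76.4 and 100.4 CPM and KRT74 at 51.5, 54.1 and 52.6 CPM. The ranges of KRT81 and KRT75 overlapped, with KRT81 higher in every library, and KRT74 lay below both. KRT71 was at 16.1 ± 0.819 CPM, KRT80 at 62.5 ± 5.96 CPM and KRT6A at 13.9 ± 0.778 CPM. KRT81 and KRT86 are paralogs that overlap on opposite strands, so the level of KRT86 (3.52 ± 0.329 CPM) is uncertain, and KRT6A has near copies in KRT6B and KRT6C.

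Along chromosome 12 the genes around KRT5 run KRT75 (52424070 to 52434525), KRT6B, KRT6C, KRT6A, KRT5, KRT71 and KRT74 (52565782 to 52573825). Of these 7, a stretch picked after its levels were seen, 5 had a mean of 10 CPM or more, as did 12 of all 54 keratins. KRT6B and KRT6C, copies of KRT6A, were at 0.0862 CPM and without a count. Beyond KRT74, KRT72 and KRT73 stood at 0.0647 and 0.0162 CPM, and before KRT75, KRT82, KRT84 and KRT85 had no count. KRT8 and KRT18 lie side by side on the same chromosome and their annotated ends overlap on opposite strands.

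**Figure D3:**
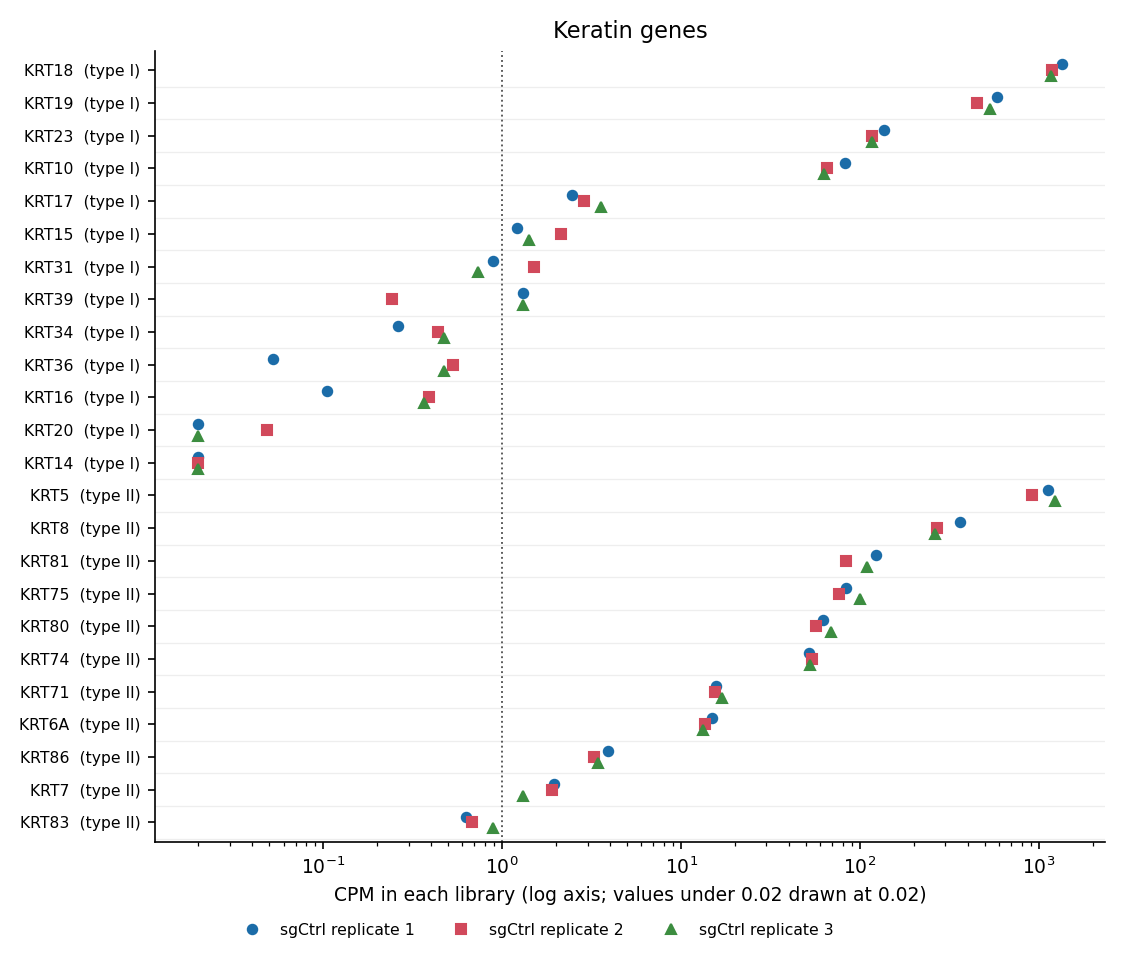
CPM in each sgCtrl library (x axis, log scale) of the keratin genes whose mean is 0.2 CPM or higher, and of KRT14 and KRT20, ordered by type and level; circles, squares and triangles are replicates 1, 2 and 3, and values under 0.02 are drawn at 0.02. KRT18 and KRT5 lead their types at means of 1228 and 1091 CPM, and KRT14 has no count.

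Receptors decide which signals from the liver a tumour cell can read. Of 209 listed receptor genes, 135 had a mean of 1 CPM or more, where 59.6% of all protein-coding genes did. No count was found for 27, and the median was 5.38 CPM, close to the 5.0 CPM of all protein-coding genes. The most abundant classes by their leading genes were integrins, cytokine receptors, nuclear receptors and receptor tyrosine kinases. Integrins join the cell to matrix. ITGA6 (414 CPM) led them, and ITGB5, which pairs with the alpha v chain, was at 360.2, 341 and 339 CPM. ITGB4, the partner of ITGA6 in hemidesmosomes, was at 143, 154 and 150.2 CPM, and ITGA6 was 2.50 to 2.98 times as abundant. ITGB1 was at 103 ± 2.22 CPM, and the leukocyte chains ITGAL and ITGA4 had no count.

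Receptor tyrosine kinases bind growth factors at the surface. EGFR, the receptor of EGF and TGF-alpha, was first of 58 at 232, 183 and 217 CPM. DDR1, a collagen receptor, was at 145, 160.1 and 153 CPM and PTK7, a pseudokinase of Wnt and polarity signalling, at 136, 176 and 120.0 CPM. EGFR lay above PTK7, and DDR1 and PTK7 overlapped, since replicate 2 was high for PTK7. EPHB6 was at 90.2 ± 3.17 CPM. ERBB2 was at 30.6 ± 4.68 CPM, with EGFR 6.47 to 7.47 times as abundant. KIT and PDGFRA were at 0.185 and 0.0350 CPM. In this class 34 of 58 genes had a mean of 1 CPM or more, near the 59.6% of all protein-coding genes. Ranges were apart in 9 of 33 neighbouring pairs in the order, against 50% over all lists. The same order was kept in all 3 libraries by 12 of the 33.

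Wnt and Notch receptors were broadly detected without a highly abundant member: 17 of 19 had a mean of 1 CPM or more, and none reached 100 CPM. The shares of all protein-coding genes were 59.6% and 8.21%. The median of the 19 receptors was 8.78 CPM, above the 5.38 CPM of all listed receptors. FZD10, a Frizzled receptor, was at 37.8, 46.8 and 38.9 CPM. LGR6, a receptor of R-spondins like LGR5, was at 29.5, 37.6 and 30.5 CPM, and NOTCH1 and NOTCH2 were at 31.6 ± 4.41 and 29.6 ± 3.92 CPM. The range of FZD10 lay just above that of LGR6, and the ranges of LGR6, NOTCH1 and NOTCH2 overlapped. Of 13 TGF-beta and BMP receptors, 9 had a mean of 1 CPM or more. BMPR2 was first at 119.8, 117 and 116 CPM and TGFBR1 followed at 73.0, 69.3 and 76.6 CPM. TGFBR2, which must bind TGF-beta before TGFBR1 is recruited, was at 6.72, 5.24 and 8.29 CPM. TGFBR1 was 9.24 to 13.2 times as abundant as TGFBR2.

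Cytokine receptors were led by TNFRSF1B and CXCR4. TNFRSF1B, the second TNF receptor, was at 234, 243 and 269 CPM, and CXCR4, the receptor of the chemokine CXCL12, at 245, 233 and 224 CPM. Their ranges overlapped. IL13RA1 and IL6ST, the shared signalling chain of the IL-6 family, were at 87.5 ± 6.04 and 85.2 ± 7.59 CPM. TNFRSF1A was at 77.1 ± 7.52 CPM, with TNFRSF1B 2.73 to 3.74 times as abundant. OSMR and CCR6 had no count.

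Among G protein-coupled receptors, 16 of 31 had a mean of 1 CPM or more. GPRC5C led at 161, 167 and 149.9 CPM, ahead of ADGRE5 (CD97) at 127, 132 and 127 CPM, without overlap. GPRC5A and ADGRG1 were at 54.8 ± 3.27 and 44.9 ± 7.25 CPM, and the prostaglandin receptors PTGER4 and PTGER2 were at 0.759 CPM and without a count. Nuclear receptors are transcription factors that bind small molecules, and 16 of 26 had a mean of 1 CPM or more. VDR, the vitamin D receptor, was at 226, 211 and 211 CPM, above NR2F2 at 86.2, 82.5 and 89.6 CPM. THRA and NR2F6 were at 59.8 ± 3.78 and 59.3 ± 2.25 CPM, with overlapping ranges. PPARG and ESR1 were at 0.102 and 0.0984 CPM.

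**Figure D4:**
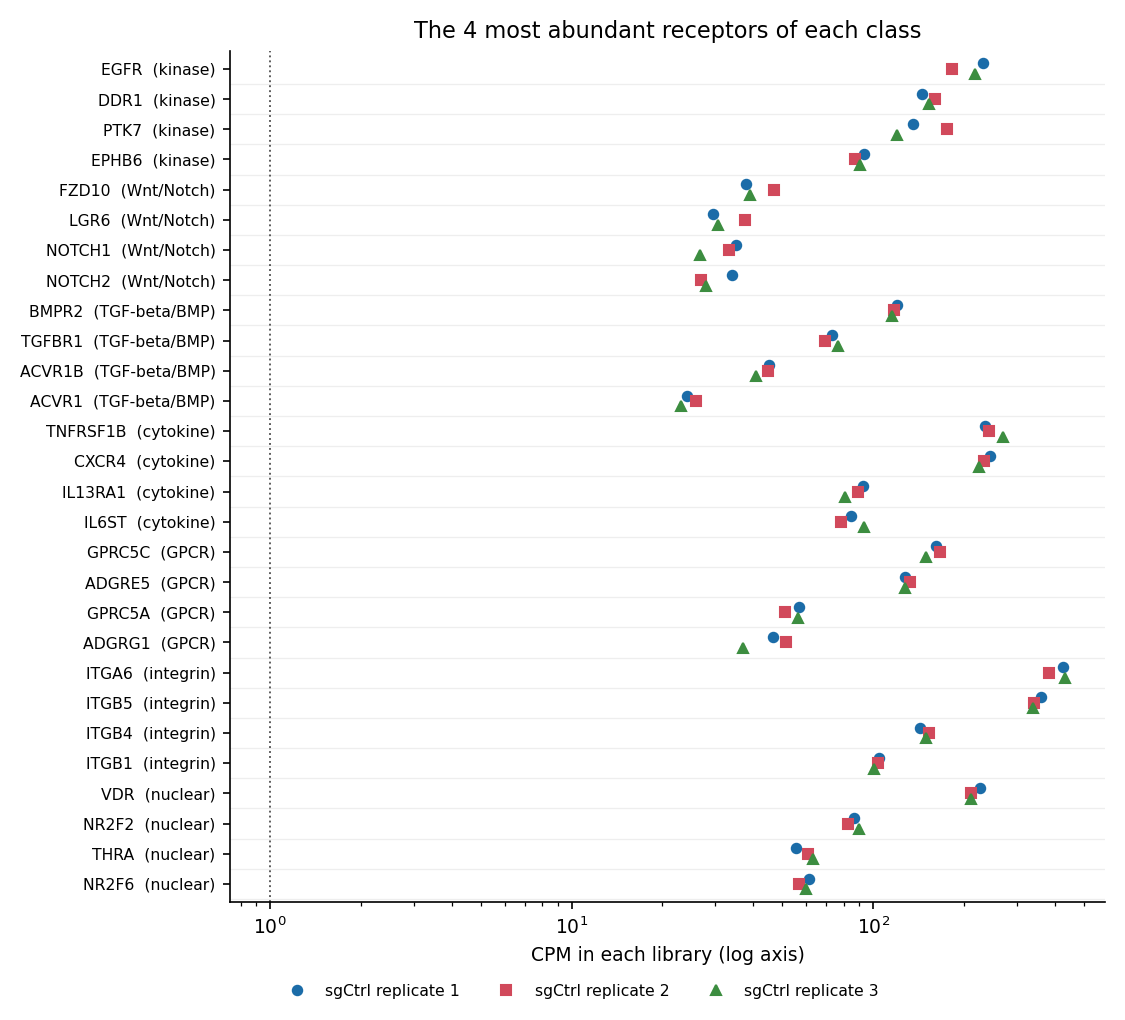
CPM in each sgCtrl library (x axis, log scale) of the 4 most abundant receptor genes of each of 7 classes; circles, squares and triangles are replicates 1, 2 and 3. ITGA6 and ITGB5 stand highest, and every Wnt and Notch receptor is below 50 CPM.

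Secreted factors were read from a list of 185 genes, of which 22 had no count, with a median of 3.27 CPM. A mean of 1 CPM or more was reached by 113 of them, near the 59.6% of all protein-coding genes. Among ligands and inhibitors of the Wnt and BMP pathways, DKK4, a secreted Wnt antagonist that is itself a Wnt target, stood out at 1068, 1378 and 1156 CPM, rank 66. BMP7 was at 225, 243 and 255 CPM, and NOTUM, an enzyme that inactivates Wnt proteins, at 198, 197 and 166 CPM. WNT5A, the most abundant Wnt, was at 97.8, 82.6 and 104 CPM. The 4 ranges were apart from each other. The related antagonist DKK1 was at 1.16, 1.65 and 1.99 CPM, SFRP1 and WIF1 had no count, and GREM1 had 1.

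Ligands of the EGF and FGF families were fewer: 9 of 20 had a mean of 1 CPM or more. FGF19, a hormone that acts on liver bile acid synthesis, was at 102, 72.4 and 83.8 CPM. TGFA, a ligand of EGFR, was at 49.0, 53.5 and 48.3 CPM and FGF20 at 44.7, 48.9 and 42.6 CPM. FGF19 lay above both. The ranges of TGFA and FGF20 overlapped, but TGFA was higher in every library. HBEGF was at 9.86 ± 0.977 CPM, EREG was at 0.102 CPM and FGF2 had no count. Of the other growth factors, PDGFA led at 266, 273 and 251 CPM. ADM and VEGFA, both known as genes induced by low oxygen, were at 62.7, 74.1 and 57.1 and 45.4, 71.9 and 49.4 CPM, each highest in replicate 2. GDF15 was at 27.2 ± 4.68 CPM, and VEGFC had no count. IGF2 was listed at 0 and overlaps other gene models on its strand.

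Cytokines and chemokines were low. Of 29, 13 had a mean of 1 CPM or more and 4 a mean of 10 CPM or more. MIF, macrophage migration inhibitory factor, led by its mean but was at 73.0, 18.1 and 15.0 CPM, high in replicate 1 only, and it overlaps a coding gene on the same strand. LIF was at 24.7, 18.2 and 15.1 CPM, IL23A at 13.5 ± 2.81 CPM and IL24 at 11.6 ± 2.13 CPM. The chemokines CXCL8 and CXCL1, which draw neutrophils, were at 0.407 and 0.0175 CPM, and IL18 had no count.

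Matrix genes were led by TGFBI, followed at a distance by the laminin chains LAMA5 at 132, 132 and 123 CPM and LAMB3 at 132, 112 and 133 CPM. LAMB1 and LAMC1 were at 90.4 ± 9.82 and 79.7 ± 3.97 CPM. COL4A1, a basement membrane collagen, was at 0.154 ± 0.105 CPM. Of 22 matrix genes, 18 had a mean of 1 CPM or more.

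Proteases and inhibitors included several abundant genes. CTSB, a lysosomal cysteine protease that is also secreted, was at 872, 866 and 867 CPM, with a coefficient of variation of 0.352%. CST3 and TIMP1, inhibitors of cysteine and metalloproteases, were at 439 ± 7.01 and 247 ± 18.3 CPM. PLAU, the urokinase that activates plasminogen, was at 18.3, 19.5 and 15.2 CPM, below CTSB in every library. MMP7 and MMP1 had no count. Among the remaining secreted proteins, S100A6 was at 2291, 1820.4 and 2053 CPM and LGALS1, galectin-1, at 1304, 1131 and 1028 CPM. S100A11 and CLU, clusterin, were at 704 ± 121 and 622 ± 49.6 CPM. AGR2 of goblet cells had no count.

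Immediate early genes are transcribed within minutes of a stimulus, often through the serum response factor SRF at CArG boxes. All 39 listed genes had a mean of 1 CPM or more, and 16 reached 100 CPM, against 59.6% and 8.21% of all protein-coding genes. The list median was 67.9 CPM. EGR1, a zinc finger factor, was at 1698, 1516 and 1549.7 CPM, rank 45. IER3 was at 1405, 1230.3 and 1488 CPM, and its range lay below that of EGR1. FOS followed, and JUN, the partner of FOS in AP-1, was at 625, 551 and 638 CPM, below FOS in every library. Among feedback regulators, ZFP36L1, which destabilises messenger RNAs, was at 1486, 1415 and 1533 CPM and DUSP6, a phosphatase of ERK, at 743, 698 and 782 CPM. Livers had been chopped and digested before RNA was extracted.

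The EGR1 upstream region is shown because this was the most abundant immediate early gene and because its 250 bases (RefSeq, GRCh38.p14, chr5:138465229-138465478, plus strand) hold 2 CArG boxes, in capitals. A CArG box was found in 2 of the 30 immediate early genes with a promoter entry, EGR1 and SRF itself, and in 1.16% of 35116 promoters. Both strands were searched, and for genes without a match these letters are only absent from this window.
EGR1: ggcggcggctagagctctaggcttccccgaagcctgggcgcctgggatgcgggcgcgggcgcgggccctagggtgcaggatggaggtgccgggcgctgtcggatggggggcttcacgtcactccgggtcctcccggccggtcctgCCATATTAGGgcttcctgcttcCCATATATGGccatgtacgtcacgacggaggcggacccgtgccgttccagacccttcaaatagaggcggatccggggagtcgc

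Chaperones, which refold proteins under stress, were abundant as a group: all 15 had a mean of 10 CPM or more, with a median of 439.4 CPM. A mean of 100 CPM was reached by 13 of the 15, against 8.21% of all protein-coding genes. HSP90AB1, the constitutive HSP90, was at 2704, 2392 and 2737 CPM, below HSP90AA1 in every library. HSP90B1 and HSPA5 of the endoplasmic reticulum were at 1030.3, 1088 and 1002 and 869, 1039 and 921 CPM. Their ranges overlapped, but HSP90B1 was higher in every library. HSPH1 was at 910.4 ± 126 CPM.

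Glycolysis turns glucose into pyruvate, and 20 of 21 of its listed genes had a mean of 1 CPM or more, with a median of 185.6 CPM. ENO1, enolase, was at 1595, 1639 and 1595 CPM, between GAPDH and PKM. The glucose transporters SLC2A3 and SLC2A1 were at 1056, 1036 and 1086 and 1075, 1055 and 994 CPM, a ratio of 0.982 to 1.09. LDHA, which makes lactate, was at 760.4, 612 and 568 CPM and was 2.92 to 4.17 times as abundant as LDHB. Of 26 genes of the hypoxia response, 23 had a mean of 10 CPM or more, with a median of 52.5 CPM. After SLC2A1 and NDRG1 came EPAS1, the HIF-2 alpha subunit, at 219 ± 8.44 CPM, P4HA2 at 180.0 ± 10.8 CPM and BNIP3L at 169 ± 13.5 CPM. NDRG1 was highest in replicate 2, as were 12 of those 23 hypoxia genes, where 25.4% of all genes with a mean of 10 CPM or more were. BNIP3 was listed at 2 counts, and what kept it there was not tested.

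Cell cycle genes were all detected, 25 of 25, with a median of 113.9 CPM. CCND1, cyclin D1, was at 1291, 1185 and 1322 CPM, rank 59. TOP2A and MKI67, present in dividing cells, were at 869.8, 892 and 998 and 537, 469.5 and 560.4 CPM. The 3 ranges were apart. MCM7 was at 342 ± 19.6 CPM. CCNE1, the cyclin of the next step into S phase, was at 4.57, 4.71 and 3.99 CPM.

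Surface antigens were led by the tetraspanins CD63 and CD9. CD63 was at 1304, 1255 and 1138 CPM and CD9 at 1537, 1106 and 1034 CPM, so replicate 1 was highest for both and their ranges overlapped. B2M, the shared light chain of class I antigen presentation, was at 669.5 ± 48.8 CPM. CD274, the ligand of PD-1, was at 0.731 ± 0.395 CPM. GUCY2C, a receptor of intestinal epithelium, had no count, and 28 of 39 listed antigens had a mean of 1 CPM or more.

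The libraries were alike for most genes and differed in a small set. Among genes with a mean of 10 CPM or more, 26 (0.292%) had their highest library at least 2-fold above the lowest, 19 with replicate 2 highest and 7 with replicate 1 highest. At a mean of 1 CPM or more the count was 575 (4.18%). Replicate 2 was at least 2-fold above both other libraries for 137 genes (0.997%) at a mean of 1 CPM or more and for 15 (0.169%) at a mean of 10 CPM or more. Without replicate 2, 6 genes were 2-fold apart and the biological coefficient of variation went from 10.6% to 8.89%.

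Hepatocyte genes were frequent in that set. Liver was the organ from which the cells were freed, so RNA of hepatocytes could be carried over. Of 61 hepatocyte genes, 21 had a mean of 1 CPM or more, and 13 of these were at least 2-fold above both other libraries in replicate 2, against 0.997% of all genes. Those 13 summed to 67.7, 332 and 45.1 CPM, and their ratio of replicate 2 to the mean of the other libraries was 2.18 to 12.5, with a median of 5.24. The other 8 summed to 137, 140.2 and 127 CPM. The list as a whole summed to 213, 493 and 176 CPM. The 13 were picked by the very ratio that describes them, so no test was made of it. Some of them also reached a mean of 1 CPM only through replicate 2. Examples are CYP2C8 at 0.210, 2.62 and 0.210 CPM and FGG at 0.788, 2.62 and 0.0525 CPM. In every library 1 CPM was reached by 13 of the 61 hepatocyte genes, a different set of 13.

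ALB, serum albumin, was first of the hepatocyte genes by its mean, at 33, 166 and 21.2 CPM, rank 2381. Replicate 2 carried that place: in replicates 1 and 3 both FAH and SERPINA1 lay above ALB, and without replicate 2 the ALB mean was 26.7 CPM. CPS1, the first enzyme of the urea cycle, was at 9.14, 74.8 and 8.03 CPM. APOB, the apolipoprotein of VLDL, was at 5.15, 23.0 and 3.57 CPM and FGB, fibrinogen beta, at 4.67, 18.1 and 3.31 CPM. In all 4 replicate 2 was high, and replicates 1 and 3 were much closer to each other. APOE and APOA1 were at 5.36, 12.4 and 3.25 and 3.26, 8.01 and 1.94 CPM. HPX, hemopexin, was at 2.52, 8.26 and 0.630 CPM and GNMT, a glycine methyltransferase, at 0.840, 7.04 and 0.577 CPM. TDO2, FABP1, FGG, ASGR1 and CYP2C8 completed the 13, with means from 1.01 to 2.33 CPM. FABP1 is also a gene of enterocytes.

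The other 8 hepatocyte genes differed in their spread. FAH, an enzyme of tyrosine breakdown, was at 49.7, 52.6 and 50.1 CPM, and SERPINA1, alpha-1 antitrypsin, at 44.2, 44.7 and 38.2 CPM. CYP27A1 was at 13.0, 13.9 and 14.6 CPM and APOC1 at 9.27 ± 0.712 CPM. These 4 had coefficients of variation from 3.12% (FAH) to 8.56% (SERPINA1). ASS1, of the urea cycle, was at 17.0, 14.0 and 11.3 CPM and C3, of complement, at 1.42, 1.17 and 0.735 CPM, both lowest in replicate 3. In PCK1 at 1.63, 3.30 and 1.68 CPM and TTR at 1.05, 1.94 and 0.210 CPM replicate 2 was highest, but it was not 2-fold above both others. Levels in the tumour cells themselves and carried-over RNA cannot be told apart for these genes. The hepatocytes of the host were mouse cells, and the sources used here do not give how mouse reads were treated.

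**Figure D5:**
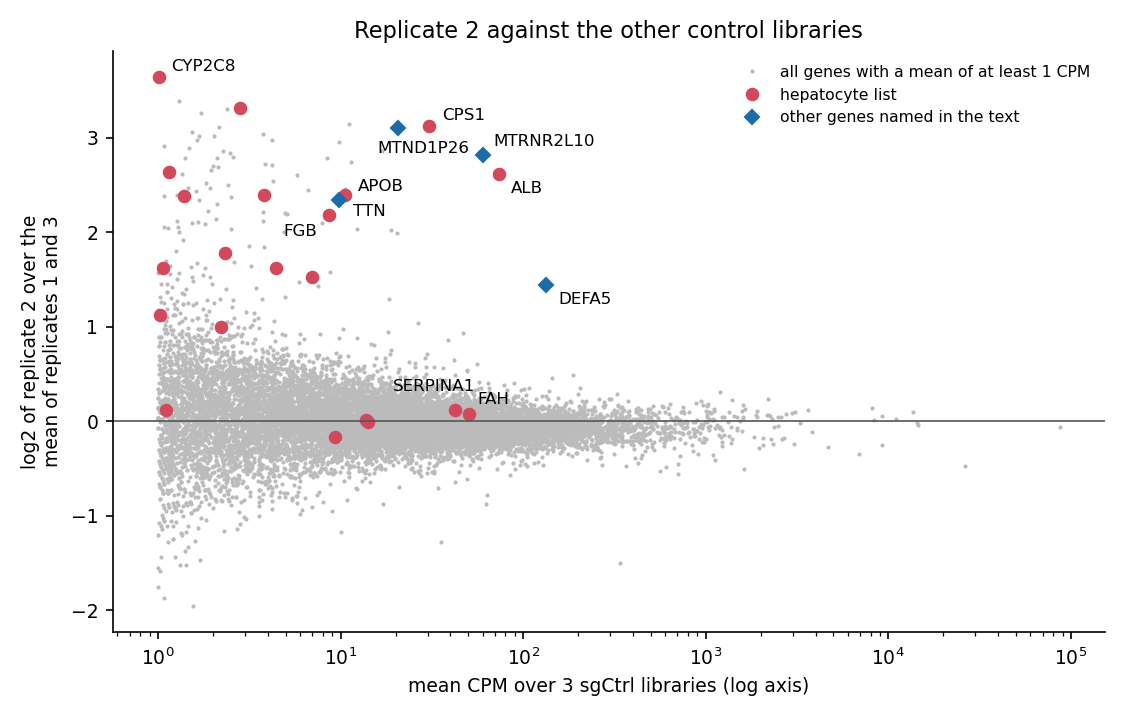
Log2 ratio of replicate 2 to the mean of replicates 1 and 3 (y axis) against mean CPM (x axis, log scale) for the 13741 genes with a mean of 1 CPM or more (grey), with hepatocyte genes in red and other named genes as blue diamonds. ALB, CPS1 and APOB lie more than 2 log2 units above 0 (2.61, 3.12 and 2.40), while FAH and SERPINA1 lie at 0.08 and 0.12.

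Most of the genes with the widest spread at a mean of 10 CPM or more were high in replicate 2 as well. MTND1P26, a nuclear copy of a mitochondrial gene, was at 8.35, 50.2 and 3.31 CPM, and MTRNR2L10 and MTRNR2L7, nuclear copies of MT-RNR2, were at 26.6, 142 and 13.5 and 6.46, 39.9 and 4.51 CPM. MT-RNR2 itself was not high in replicate 2. C6 and CP, both plasma proteins made by liver, were at 2.84, 27.4 and 3.36 and 3.57, 26.4 and 4.30 CPM, and A2MP1, a pseudogene of alpha-2-macroglobulin, was at 5.83, 23.3 and 2.68 CPM. With CPS1, ALB and APOB these fill 9 of the 10 widest spreads, and MIF, high in replicate 1, is the other. Genes that go with liver, such as C6 and CP, were not in the hepatocyte list. DEFA5, a defensin of Paneth cells, was at 84.0, 229.7 and 85.4 CPM, also high in replicate 2 although it is no hepatocyte gene. The part of carried-over liver RNA in these differences was not tested.

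Other cell types of liver left little signal in these counts. The host cells were mouse cells, mouse cells had been depleted, and the treatment of mouse reads is not given. Low counts here and in the next paragraph therefore do not show how many such cells were present. Endothelial genes summed to 5.04 to 6.09 CPM, and 11 of 12 were under 1 CPM. Their defining members PECAM1 and VWF were at 0.171 and 0.277 CPM, and CDH5 and STAB2 had no count. ROBO4 at 4.17 ± 0.0918 CPM made up most of that sum. Macrophage genes summed to 1.84 to 2.31 CPM, with CD14 the highest at 1.3 ± 0.332 CPM, CD68 at 0.458 CPM, and CD163, C1QA and TYROBP without a count. Erythroid genes summed to 0.577 to 1.31 CPM, with HBA2 the highest at 0.742 ± 0.253 CPM. In replicate 2, where the hepatocyte sum was highest, the endothelial, macrophage and erythroid sums were 5.24, 2.19 and 1.31 CPM. Of the 3 only the erythroid sum was highest there. Also highest in replicate 2 were the stellate and fibroblast sum (25.0, 25.5 and 23.5 CPM) and the lymphocyte and neutrophil sum (119, 129.9 and 113 CPM). So was the muscle sum (26.1, 47.5 and 16.3 CPM), whereas the cholangiocyte sum was lowest there (922, 745 and 862 CPM).

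Stellate and fibroblast genes summed to 23.5 to 25.5 CPM. ACTA2, smooth muscle actin, was at 12.7, 11.8 and 11.9 CPM and COL1A1 at 5.67, 5.39 and 5.40 CPM, both even. ACTA2 overlaps the coding genes FAS (15.5 CPM) and STAMBPL1 (13.8 CPM) on the opposite strand. Its level is therefore uncertain without the strand setting. COL1A2 and COL3A1 were at 0.271 and 0.338 CPM and LUM and DCN had no count. Lymphocyte and neutrophil genes summed to 113 to 129.9 CPM, and CD3D, a chain of the T cell receptor complex, supplied most of it at 95.9, 102 and 90.9 CPM. CD3E, its partner chain, was at 0.342 ± 0.318 CPM, and PTPRC, CD2 and MS4A1 had no count. S100A9 and CXCR2 were at 12.4 ± 2.80 and 9.92 ± 1.12 CPM. In the cholangiocyte list KRT19 was at 524 and SOX9 at 289 CPM, and the keratin and colon lists hold these genes too. CFTR and SPP1 had no count and 1 count. The part of cholangiocytes in these levels was not tested.

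Neighbouring genes in the order had ranges apart in some pairs and overlapping in others. Over all lists and roles, 526 pairs of neighbouring genes with a mean of 1 CPM or more were compared. In 263 (50%) the ranges of the 3 libraries did not overlap. Both genes of a pair were measured in the same libraries, so overlapping ranges do not mean that the order changed. Among keratins of the type I and type II simple and barrier groups all 7 pairs were apart, and among type II hair and root sheath keratins 3 of 4. These groups hold few pairs each. Among cytokine receptors 8 of 28 pairs were apart, and 15 of 28 kept the same order in all 3 libraries. Among hepatocyte enzymes and plasma proteins 2 of 19 pairs were apart. The same order in all 3 libraries was kept by 2 of 9 enzyme pairs and 3 of 10 plasma protein pairs.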

How the data were processed

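Values are the gene counts the authors deposited for the 3 sgCtrl libraries, and the counts of the 3 sgITPR3 libraries were not used. Per the submitters' processing notes, GRCh38, STAR 2.6.0a, featureCounts 1.6.3 and DESeq2 were used. The sources used here do not give the annotation release, how strand was set, or how mouse and multiply aligned reads were handled. Totals were 19255242 to 20049117 counts, and a single count was 0.0486 to 0.0525 CPM.

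CPM were computed from the counts over library sizes scaled by TMM among these 3 libraries (factors 0.984 to 1.03) with R 4.3.3 and edgeR 4.0.16, which also gave the biological coefficient of variation after filterByExpr (minimum count 10). Tables were made with python 3.11.15, and the spread estimate was checked on simulated data. GENCODE 29 matched 58611 of 58884 identifiers for positions and lengths, and 58641 received a symbol. Promoters came from RefSeq (GRCh38.p14). No test was made, since only 1 group enters. Library pairs differed beyond counting noise (chi-square per degree of freedom 9.93 to 11.6), so none repeats another, and their Pearson correlations across 13741 genes on the log2 scale were 0.989 to 0.992.

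The members and the 26 lists (903 genes, 3 listed symbols unmatched) were chosen with earlier results of these data known. The rule names the 6 markers, the top 20 genes, the 4 highest members of each list and role, up to 2 known members at or under 1 CPM, the 10 widest spreads, the hepatocyte genes at a mean of 1 CPM or more, and ITPR3. Other genes named, such as CDH1, ERBB2, TGFBR2, TNFRSF1A, DKK1, PLAU, LDHA, CCNE1, DEFA5, KRT86 and further members under 1 CPM, were chosen after their values were seen. Not every gene that meets the rule is reported here. The alternatives tried were RLE scaling, plain CPM, totals without mitochondrial genes, the median of libraries, other filters and thresholds, a pseudocount of 0.5 CPM, division by transcript length, and leaving out each library.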

Additional observations from a re-analysis of the deposited data

How the results depend on the processing

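Under RLE scaling and plain CPM all 216 named genes and every other result recomputed stayed within 1 SD of the libraries, or within 1.5 times for counts. Of the 216, 2 moved by more than that without replicate 1, 9 without replicate 2 and 1 without replicate 3. Leaving mitochondrial genes out of the totals raised the number of genes that hold 50% of counts from 396 to 828. The number of genes 2-fold apart between libraries (26) was 16 with the median of libraries in place of the mean, 575 at a mean of 1 CPM or more, 11754 with no filter, and 6 to 27 when a library was left out, with 6 without replicate 2. With the median of libraries the colon lineage and macrophage list medians were 0 (0.0499 and 0.0249 CPM with the mean). Without replicate 2 the medians were 0.0259 CPM for colon lineage, 0.0129 for macrophage, 0.13 for muscle (0.314 with all), 0.233 for hepatocyte (0.514) and 0 for erythroid genes (0.00809). Without replicate 1 the macrophage and erythroid medians were both 0.0122 CPM, without replicate 3 the erythroid median was 0.0122 CPM, and these medians rest on a few counts. When a library was left out, list medians ranged from 3.27 to 3.56 CPM for secreted factors, 5.22 to 5.97 for receptors, 46.5 to 53.9 for the hypoxia response and 0.0632 to 0.102 for lymphocyte and neutrophil genes. Without replicate 2 the mean hepatocyte sum went from 294 to 192 CPM and the ALB mean from 73.3 to 26.7 CPM. Divided by transcript length, CPM kept a Spearman correlation of 0.905 with CPM across 13070 genes. Under this division 156 of the 216 named genes counted as moved and 60 as the same. By rank, 39 of 216 changed by over 2-fold, among them DSP (137 to 1867) and SOX9 (443 to 2413). The cause was not tested where the construction of an alternative does not show it. Depth limits the reading of genes with few counts, where 1 count more or less changes the level. No paired analysis was possible because only 1 group is described and no result comes from a test.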
